A study of Mus musculus with 2 samples.

Results

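The genes described here are 3 Notch receptors (*Notch1*, *Notch2*, *Notch3*), 6 genes of the Hes and Hey families of transcription factors (*Hes1*, *Hes5*, *Hes6*, *Hey1*, *Hey2*, *Heyl*) and *Nrarp*. They were taken by symbol and make up 10 of the 31055 features counted in both libraries. SOX9iresGFP+ cells were sorted from Sox9iresGFP/+ mouse pituitaries at postnatal day 3 and sequenced with the 10x Genomics 3′ assay, as 1 library of male and 1 library of female cells, each from 3 pituitaries. Every cell in both libraries therefore carries the Sox9iresGFP allele and passed the GFP gate, and no unsorted cells were analysed here. With 1 library per sex, male and female cells cannot be told apart from their library, sort and animals. A level is the number of unique molecular identifiers (UMIs) of a gene in all cells of a class, scaled to counts per 1000000 UMIs (CPM) within each library. Ranges in parentheses are 95% limits, exact Poisson for levels and Clopper-Pearson for shares of cells, and cover counting error only. Limits of female over male ratios divide a bound of 1 level by the opposite bound of the other, and are wider than 95% limits. Where values come in pairs, the male library is first and the female second.

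Notch receptors are cleaved after they bind a ligand on a neighbouring cell, and the released intracellular domain joins the DNA-binding protein RBPJ to switch on target genes. The best known targets are the bHLH repressors of the Hes and Hey families, which keep progenitors from differentiating by repressing proneural activators. In the developing pituitary this pathway is known for maintaining progenitors and for the timing of endocrine differentiation. NRARP is a target that limits Notch signalling, while HES6 is an atypical member of the Hes family that is known to be induced by proneural factors and to oppose HES1.

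Promoter sequences are shown where they hold the letters that RBPJ is known to bind, since Hes and Hey genes and *Nrarp* are known as Notch targets. The receptor genes and the atypical *Hes6* are not described so above, and their windows were searched as well. RefSeq windows on GRCm38.p6, of 250 bases before and 50 bases after each start, were available for 7 of the 10 genes (*Notch1*, *Notch2*, *Notch3*, *Hes5*, *Hes6*, *Hey2*, *Nrarp*), with 2 windows for *Hes6*. The motif GTGGGAA was searched on both strands. It was found in the windows of *Hes5* and *Hey2*, with 2 matches in each, and in 6.38% of all 32851 windows. The shorter core TGGGAA, which lies within GTGGGAA, was found in the same 2 genes and in 25.6% of all windows. The capitals below mark GTGGGAA or its reverse complement. The *Hes5* matches begin 226 and 83 bases before the start, at chr4:154960673-154960727 and chr4:154960816-154960870 on the plus strand, and the *Hey2* match shown begins 207 bases before the start, at chr10:30842960-30843014 on the minus strand.
Hes5 distal: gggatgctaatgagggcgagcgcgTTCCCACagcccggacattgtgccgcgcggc
Hes5 proximal: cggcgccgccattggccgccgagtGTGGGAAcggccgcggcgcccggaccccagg
Hey2: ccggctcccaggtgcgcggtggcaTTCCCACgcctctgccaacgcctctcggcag
The second *Hey2* match spans the start itself. A match is a stretch of letters and not a measured binding site. The N-box CACNAG, a sequence that Hes proteins are known to bind, was found in windows of 5 of the 7 genes and in 42.5% of all windows.

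*Hes1* lies at chr16:30064384-30067796 on the plus strand, *Hes6* at chr1:91411483-91414038 on the minus strand and *Notch2* at chr3:98013527-98150361 on the plus strand (mm10, GENCODE vM21). The classes were set by raw UMIs of marker genes and used none of the 10 genes. Stem cells (SCs) had at least 2 UMIs of *Sox2* and at least 3 of *Sox9*, *Ednrb*, *Aldh1a2*, *Cdh26* and *Cyp2f2* together, with no *Lef1*. Cycling SCs passed the stem gate and had at least 5 UMIs over at least 3 of 12 cycling markers. Differentiating cells had at least 2 UMIs of *Lef1* and were not cycling. Endocrine cells were gated on *Cga*, *Gnrhr*, *Lhb* and *Fshb*, on *Pou1f1*, *Prl*, *Gh* and *Tshb*, or on *Pomc*, and mesenchymal cells on collagen genes and *Dcn* or on the mural genes *Rgs5*, *Kcnj8* and *Cspg4*. Of 7255 male and 5571 female cells, 1842 and 2358 were SCs, 736 and 522 cycling SCs, 799 and 584 differentiating, 1207 and 352 endocrine and 518 and 288 mesenchymal. The labels call all cells stem cells, while these gates placed 25.4% and 42.3% of them in the SC class. Cells that passed no gate (1463 male, 20.2%, and 1245 female, 22.3%) and cells that passed gates of more than 1 lineage (488 and 164) were left out, as were 61 and 21 cycling cells with *Lef1* from these 5 classes, 93 and 15 other cycling cells and 48 and 22 cells of other types. The median cell had 11845 and 9912 UMIs, and 19 cell barcodes occurred in both libraries. The summed level of 6 stem markers was 1755 and 1829 CPM in male and female SCs, 499 and 624 CPM in differentiating, 91.5 and 208 CPM in endocrine and 82.5 and 74.9 CPM in mesenchymal cells. These 6 genes are those of the stem gate, and endocrine or mesenchymal cells that also passed it were left out. Their levels are thus partly set by the gates.

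In both libraries SCs had more of the 3 receptors and of *Hes1*, *Hes5*, *Hey1*, *Hey2*, *Heyl* and *Nrarp* than differentiating and endocrine cells. The same held for cycling SCs, except that *Hes5* in the female library was at 3.02 CPM in cycling SCs and 4.03 CPM in differentiating cells. *Hes6* was highest in differentiating cells in both libraries. When each SC was thinned to 5000 UMIs, 94.2% and 96.3% had at least 1 UMI of the 6 genes *Hes1*, *Hes5*, *Hey1*, *Hey2*, *Heyl* and *Nrarp*, and 64.7% and 66.2% had 1 of the 3 receptors. In differentiating cells these shares were 20.6% and 26.2% for the targets and 11.5% and 15.8% for the receptors. In endocrine cells they were 9.56% and 17.3%, and 5.55% and 7.67%.

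**Figure D1:**
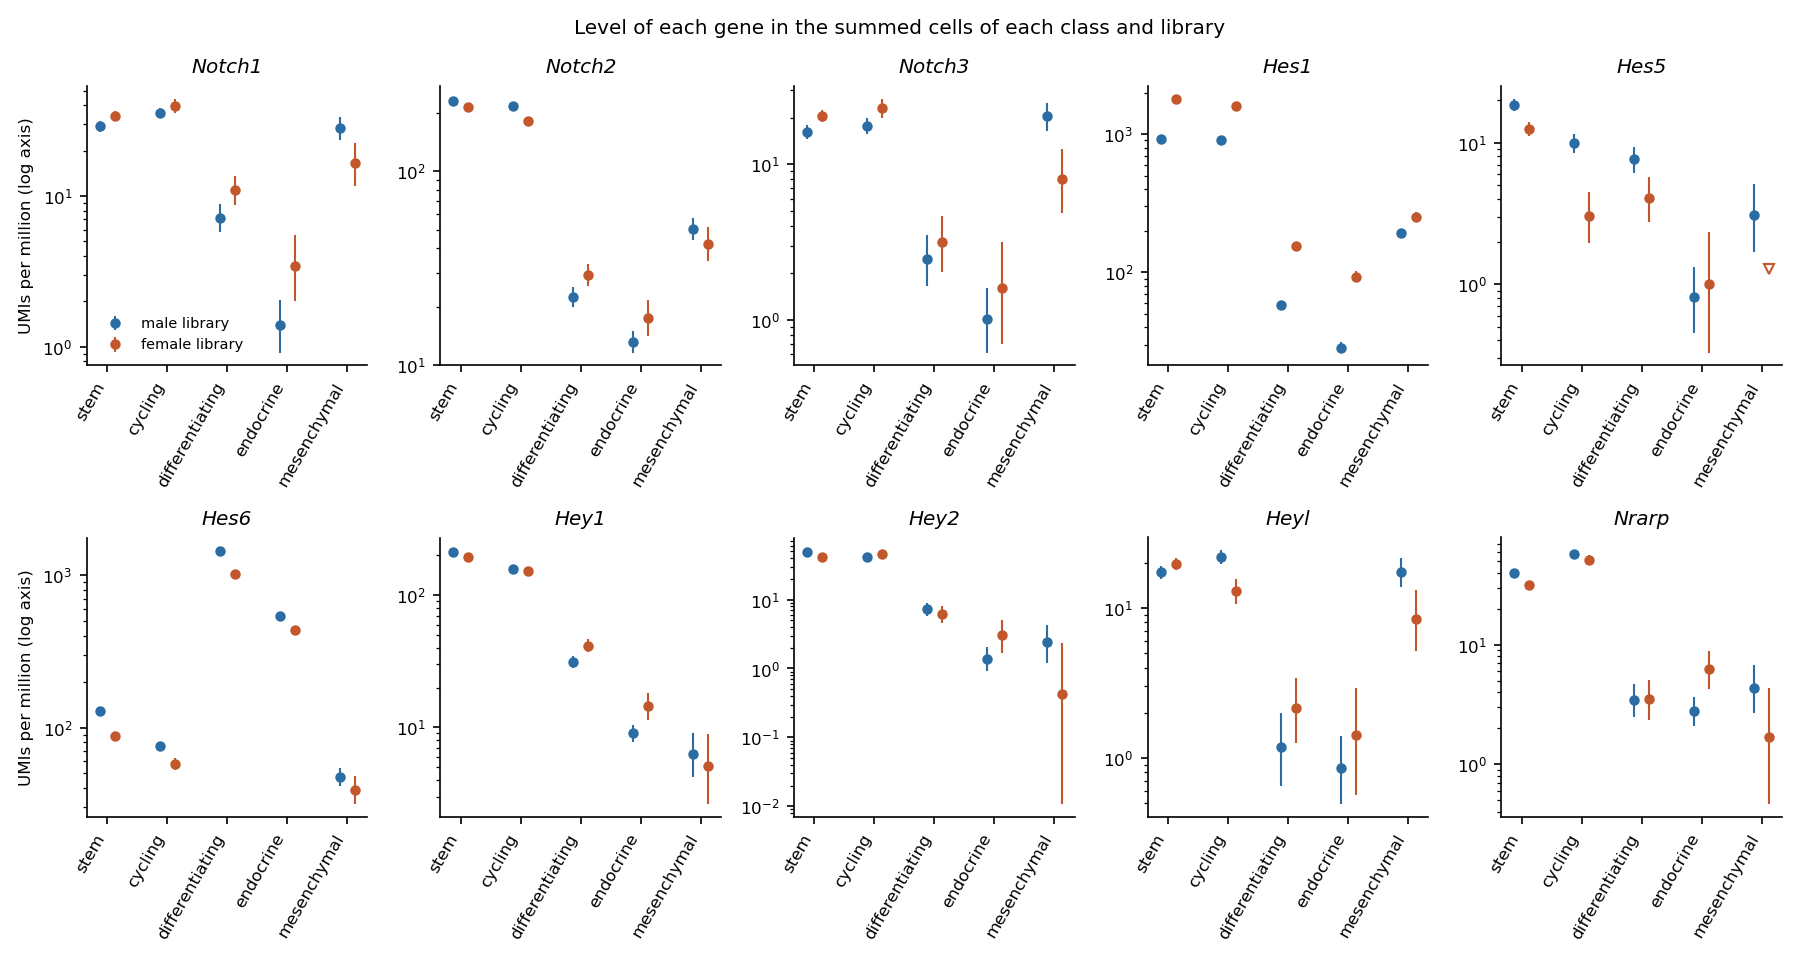
Level of each of the 10 genes in CPM on a log axis, in the 5 classes of the male (blue) and female (orange) library, with exact Poisson 95% intervals; an open triangle marks the level of 3 counts where no UMI was found. *Hes6* peaks in differentiating cells at 1436 and 1021 CPM, while *Hes1*, *Notch2* and *Hey1* fall from the SC classes to the other classes.

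*Notch2*, a receptor, was at 231 CPM (225–238) in male and 214 CPM (208–220) in female SCs and at 217 and 182 CPM in cycling SCs. Differentiating cells had 22.4 CPM (19.8–25.3) and 29.2 CPM (25.6–33.3), and endocrine cells 13.1 and 17.5 CPM. Every SC and cycling SC value was therefore above every value of differentiating and endocrine cells. *Notch1* was at 29.0 and 34.1 CPM in SCs and at 7.20 and 10.97 CPM in differentiating cells, and *Notch3* at 16.2 and 20.5 CPM against 2.46 and 3.15 CPM. A *Notch2* UMI was found in 57.8% (55.4–60.1) and 56.5% (54.4–58.5) of thinned SCs, against 7.20% and 10.7% of differentiating cells. As sequenced, the SC shares were 76.2% and 72.5%, and 69 male and 49 female SCs had too few UMIs to be thinned.

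*Hes1*, the repressor most widely used as a readout of Notch activity, was at 925 CPM (912–938) in male SCs and 1787 CPM (1770–1804) in female SCs. Cycling SCs had 911 and 1603 CPM. Differentiating cells had 57.8 CPM (53.6–62.3) and 155 CPM (147–164), endocrine cells 28.6 and 93.3 CPM and mesenchymal cells 193 and 250.2 CPM. The SC classes of each library were thus above its other classes, and the mesenchymal cells stood between. A *Hes1* UMI was found in 87.5% (85.8–89.0) and 93.9% (92.8–94.8) of thinned SCs, in 10.1% and 13.9% of differentiating cells and in 5.80% and 9.66% of endocrine cells (as sequenced, 92.3% and 95.6% of SCs and 14.0% and 19.0% of differentiating cells).

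*Hey1*, a Hes-related repressor, was at 213 CPM (206–219) in male and 196 CPM (190–202) in female SCs and at 31.2 and 41.6 CPM in differentiating cells. *Hey2* went from 49.0 and 42.1 CPM to 7.28 and 6.18 CPM, and *Heyl* from 17.2 and 19.6 CPM to 1.19 and 2.14 CPM. *Nrarp*, the feedback inhibitor, was at 39.4 and 31.7 CPM in SCs and 3.47 and 3.53 CPM in differentiating cells. In each of these genes both SC values were above both differentiating values. *Hes5*, a target with low levels in all classes, was at 18.5 CPM (16.7–20.5) and 12.5 CPM (11.1–14.0) in SCs and at 7.62 CPM (6.13–9.37) and 4.03 CPM (2.76–5.70) in differentiating cells. Only 4.17% of thinned male and 3.25% of thinned female SCs had a *Hes5* UMI, and single thinned SCs held up to 17 and 9 UMIs of it.

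*Hes6* ran the other way. It was at 128 CPM (123–133) in male and 87.6 CPM (83.8–91.5) in female SCs, at 76.2 and 57.7 CPM in cycling SCs, and at 1436 CPM (1415–1458) and 1021 CPM (999–1044) in differentiating cells. Endocrine cells stood between, with 539 and 436 CPM, and mesenchymal cells were lowest, with 47.7 and 38.9 CPM. The order of the 5 classes was the same in both libraries. After thinning, *Hes6* UMIs were seen in 96.6% (95.1–97.7) and 91.7% (89.2–93.8) of differentiating cells, against 18.6% and 11.9% of mesenchymal cells.

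The classes were compared with edgeR's quasi-likelihood test on the UMIs summed per class and library, with the library as a term. The fit held 10 sums of 5 classes in 1 model with 4 residual degrees of freedom, and its p-values, adjusted over 14949 genes, rest on 2 libraries. All 10 genes were called between differentiating cells and SCs at an adjusted p under 0.05. Of them 9 were lower, against 28.3% of all genes tested, and *Hes6* was higher, as were 24.9% of all genes. The median log2 fold change was -2.73 over the 10 genes and -0.02 over all genes. *Hes1* fell by 3.74 (SE 0.345, edgeR adjusted p = 0.000899) on the log2 scale, *Notch2* by 3.12 (SE 0.149, adjusted p = 6.82e-08), *Heyl* by 3.56 and *Nrarp* by 3.35. *Hes5* had the least change of the 9, at -1.45 (SE 0.277, adjusted p = 0.000958), and was not called without the library term (-1.37, SE 0.54, adjusted p = 0.0739). *Hes6* rose by 3.52 (SE 0.0748, adjusted p = 7.77e-16). The fold of *Hes6* was 11.2 and 11.7 within the libraries, and *Hes1* was 16.0 and 11.5 times lower. Changes of 4-fold or more were called for 7.39% of all genes downwards and for 3.81% upwards, and 7 of the 10 genes passed the former.

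Between endocrine cells and SCs all 10 genes were called as well, 9 of them lower (31.6% of all genes) and *Hes6* higher (31.0% of all genes). The 9 log2 fold changes lay between -3.37 for *Nrarp* and -4.74 for *Hey2*, with a median of -4.19 over the 10 genes and 0.00 over all genes. *Hes6* rose by 2.15 (SE 0.0719, edgeR adjusted p = 4.66e-14). From differentiating to endocrine cells, 6 genes were called and all 6 were lower, against 24.8% of all genes. These were *Hes5* (-3.03, SE 0.477), *Notch1* (-2.25, SE 0.387), *Hey2* (-2.0, SE 0.32), *Hey1* (-1.80, SE 0.197), *Hes6* (-1.37, SE 0.0692) and *Notch2* (-0.87, SE 0.187). Few UMIs in male and female endocrine cells underlie the largest folds, 15 and 5 of *Hes5*, 26 and 17 of *Notch1* and 26 and 15 of *Hey2*. *Hes1* had a log2 fold change of -0.94 (SE 0.356) and was not called, with an edgeR adjusted p of 0.0944. *Notch3*, *Heyl* and *Nrarp* were not called either, at adjusted p-values of 0.0859, 0.385 and 0.978. The *Notch2* call was lost without doublets (-0.62, edgeR adjusted p = 0.0689) and with stricter gates (-0.22, adjusted p = 0.33), while DESeq2 called *Hes1* and *Notch3*, at adjusted p-values of 0.0349 and 0.0406.

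**Figure D2:**
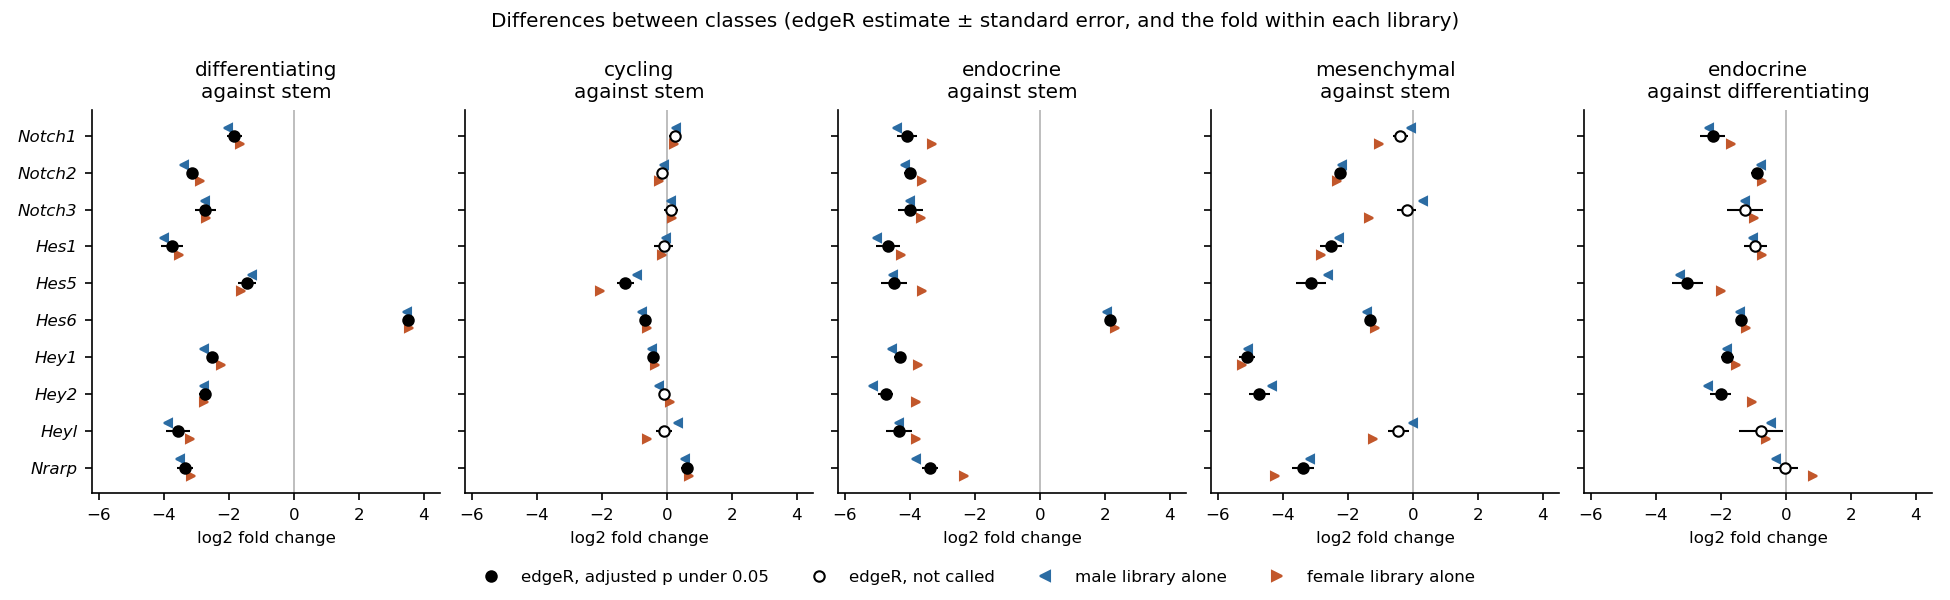
Log2 fold change of the 10 genes in 5 comparisons of classes, as the edgeR estimate with its standard error (filled circles, adjusted p under 0.05; open circles, not called) and as the fold within the male (blue) and female (orange) library. *Hes6* lies right of 0 in differentiating and endocrine cells against SCs, at 3.52 and 2.15, and the other 9 genes lie left of it.

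Cycling SCs were the class nearest to SCs. Of the 10 genes, 4 were called, 3 of them lower, against 16.1% of all genes, and 1 higher, against 13.1%. *Hes5* was at 18.5 and 12.5 CPM in SCs and at 9.91 CPM (8.43–11.6) and 3.02 CPM (1.95–4.45) in cycling SCs, a log2 fold change of -1.28 (SE 0.262, edgeR adjusted p = 0.00347). *Hes6* fell by 0.68 (SE 0.0742, adjusted p = 1.13e-06) and *Hey1* by 0.41 (SE 0.131, adjusted p = 0.0436). *Nrarp* went from 39.4 to 57.9 CPM and from 31.7 to 51.0 CPM and rose by 0.615 (SE 0.163, adjusted p = 0.0171). The median of all genes was -0.10 on the same scale, and that of the 10 genes -0.09. *Hes1*, *Hey2*, *Heyl* and the 3 receptors were not called, with log2 fold changes from -0.16 for *Notch2* to 0.25 for *Notch1*. Without the library term none of the 4 calls held, at edgeR adjusted p-values from 0.0625 to 0.177, and with DESeq2 *Hes5* and *Hes6* held.

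*Hes5* differed between phases of the cycle. Cycling SCs were divided by their S-phase and G2/M marker UMIs into 202 male and 142 female S-phase cells and 387 and 286 G2/M cells, a comparison added after the levels had been seen. *Hes5* was at 16.8 CPM (12.98–21.4) and 9.55 CPM (5.75–14.9) in S phase and at 3.05 CPM (2.04–4.38) and 0.601 CPM (0.124–1.76) in G2/M. Both S-phase values were above both G2/M values. *Hes5* fell by 2.62 (SE 0.317, edgeR adjusted p = 1.13e-08) and was the only 1 of the 10 genes called, where 4.12% of 14225 genes were lower. The female G2/M value rests on 3 UMIs and the male one on 29.

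**Figure D3:**
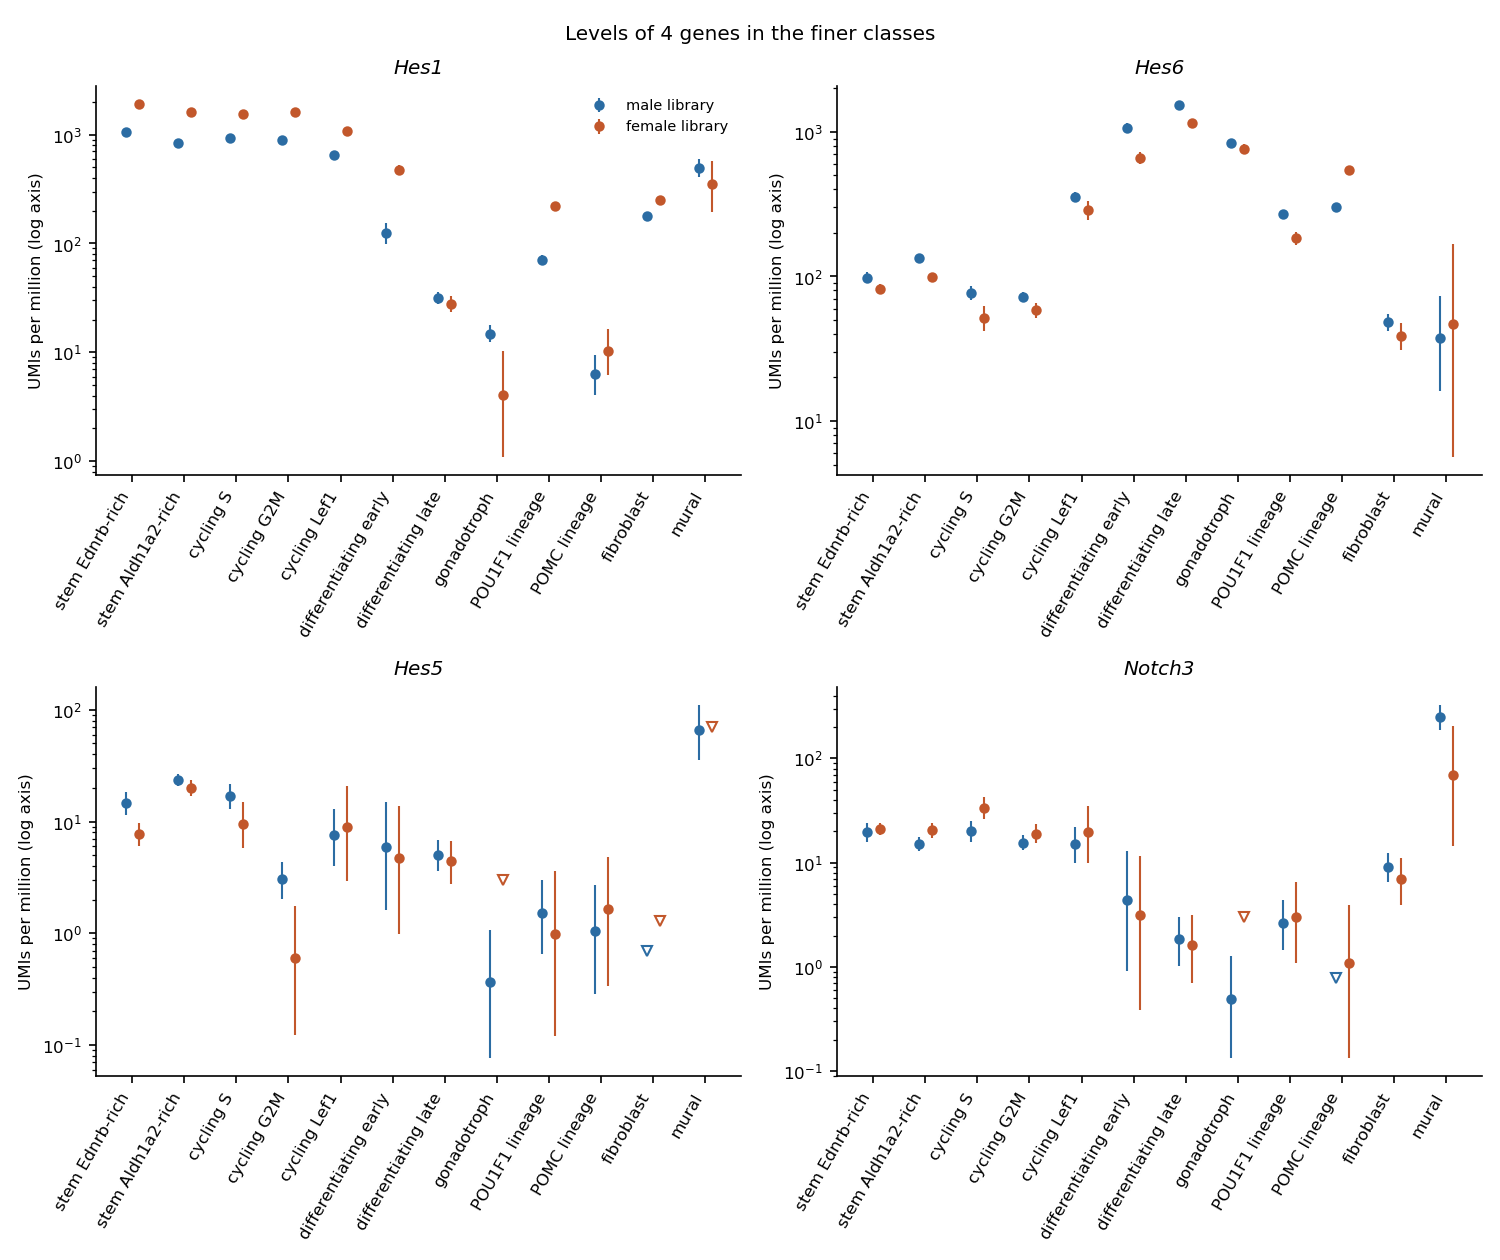
Levels of *Hes1*, *Hes6*, *Hes5* and *Notch3* in CPM on a log axis, in 12 finer classes of the male (blue) and female (orange) library, with exact Poisson 95% intervals and an open triangle at the level of 3 counts where no UMI was found. *Hes5* lies lower in G2/M than in S phase, and *Notch3* is highest in the 30 male mural cells, at 248 CPM.

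Within SCs, cells rich in *Ednrb* (403 male, 974 female) were set against cells rich in *Aldh1a2* without *Ednrb* (943 male, 773 female). *Hes5* was at 14.7 CPM (11.5–18.5) and 7.69 CPM (6.05–9.64) in the former and at 23.4 CPM (20.6–26.5) and 19.8 CPM (16.8–23.3) in the latter. Both *Aldh1a2*-rich values were the higher ones, and the log2 fold change was -1.09 (SE 0.178, edgeR adjusted p = 1.74e-05). *Notch1* went the other way, at 43.7 and 40.3 CPM in *Ednrb*-rich and 23.1 and 26.9 CPM in *Aldh1a2*-rich cells, a rise of 0.66 (SE 0.148, adjusted p = 0.00199). These 2 genes were the only ones called of the 10, 1 in each direction, where 3.42% of 14225 genes were lower and 4.67% higher. With DESeq2 neither was called, at adjusted p-values of 0.0645 and 0.0764. *Hes1* was at 1065 and 1896 CPM in *Ednrb*-rich and 839.98 and 1617 CPM in *Aldh1a2*-rich cells and was not called (adjusted p = 0.815).

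*Hes1* and *Hes6* also went apart from cell to cell within SCs, as counted after thinning to 5000 UMIs and given without a test. The 222 male SCs without a *Hes1* UMI had 273 CPM of *Hes6* (243–306), against 87.2 CPM (80.7–94.0) in the 1551 cells with one. The 142 female SCs without *Hes1* had 311 CPM (272–355), against 65.0 CPM (60.3–70.0) in 2167 cells. *Hey1* was lower in the cells without *Hes1*, at 150.5 against 237 CPM and 81.7 against 211 CPM. SCs with a UMI of the ligand gene *Jag1* had 43.2 CPM of *Hes5* (32.7–56.2) against 14.7 CPM (12.1–17.7) in male and 32.9 against 11.3 CPM in female cells. No *Hes5* UMI was seen in 95.8% and 96.8% of thinned SCs, and single cells held up to 17 and 9. A few cells can therefore weigh heavily in these *Hes5* levels, and the limits do not cover this. The counts in 1 cell share its total, so cells are not replicates here.

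Differentiating cells were divided into early cells, rich in *Cdkn1a* (49 male, 42 female), and late cells with *Shh*, *Smoc2* or *Pou3f4* (541 male, 357 female). *Hes1* was at 125 CPM (99.7–154) and 474 CPM (422–531) in early and 31.7 CPM (28.0–35.8) and 28.0 CPM (23.5–33.0) in late cells. It fell by 3.12 (SE 0.457, edgeR adjusted p = 0.00229). *Notch2* fell from 36.7 to 14.9 CPM and from 71.4 to 15.5 CPM, and *Hey1* from 61.7 to 20.7 and from 66.6 to 23.5 CPM. Of the 10 genes 5 were called, *Hes1*, *Hey1*, *Hey2*, *Notch1* and *Notch2*, all of them lower, where 2.85% of all genes were. *Hes6* was at 1069 and 661 CPM in early and 1541 and 1153 CPM in late cells and was not called (log2 fold change 0.64, SE 0.233, adjusted p = 0.181). The summed stem markers were also higher in early cells, at 605 and 945 CPM against 438 and 481 CPM, and their part was not tested. With stricter gates, which left 20 male and 21 female early cells, *Hey1* alone was called. *Hes1* then had a log2 fold change of -1.69 (SE 0.391, edgeR adjusted p = 0.0664) and *Notch2* one of -0.90 (-0.895, adjusted p = 0.412).

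Much of the *Hes1* in late cells came from few cells. Scrublet, which scores cells by their likeness to simulated pairs of cells, marked 26 of the 541 male and 10 of the 357 female late cells as doublets. These cells held most of the *Hes1* UMIs, and without them 47 of 259 male and 38 of 139 female UMIs were left, 6.22 and 7.99 CPM. In early cells, where 1 male and 6 female cells were marked, *Hes1* without them was at 113 and 228 CPM. In all differentiating cells it was at 35.1 and 106 CPM and in all endocrine cells at 20.6 and 66.5 CPM. Over all thinned differentiating cells, 31 of the 80 male cells with a *Hes1* UMI were marked (38.8%) and 7 of the 712 without (0.983%), and 23 of 81 (28.4%) and 5 of 500 (1%) in the female library. Among unmarked cells, the 49 male cells with *Hes1* had 522 CPM of *Hes6* (436–621) and 494 CPM of the stem gene *Aldh1a2* (410–590). The 705 male cells without *Hes1* had 1524 CPM of *Hes6* (1483–1565) and 58.4 CPM of *Aldh1a2*. In the female library the 58 cells with *Hes1* had 438 CPM of *Hes6* and 486 CPM of *Aldh1a2*, against 1097 and 64.2 CPM in 495 cells. The *Hes1*-positive cells of this class were thus lower in *Hes6* and higher in *Aldh1a2* also among unmarked cells. The part of undetected doublets and free RNA in this was not tested.

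Within endocrine cells the residual *Hes1* lay mostly in the POU1F1 lineage. *Hes1* was at 70.1 CPM (63.1–77.6) and 219 CPM (199–240) in POU1F1-lineage cells (399 male, 164 female), at 14.9 CPM (12.3–17.8) and 4.02 CPM (1.10–10.3) in gonadotrophs (562 male, 66 female) and at 6.32 and 10.4 CPM in POMC-lineage cells (183 male, 115 female). The POU1F1-lineage value was the highest of the 3 in each library. Between gonadotrophs and POU1F1-lineage cells 9 of the 10 genes were called, 8 lower, against 12.9% of all genes, and *Hes6* higher, as 14.2% of all genes were. Several of the lower calls rest on few UMIs in male and female gonadotrophs. *Notch1* had 5 and 0 there, *Notch3* 4 and 0, *Heyl* 1 and 0 and *Hey2* 10 and 1. *Hes1* fell by 2.93 on the log2 scale (SE 0.507, edgeR adjusted p = 0.00121). *Nrarp* was at 0.983 CPM in male gonadotrophs, had no UMI in the 66 female ones, and was at 7.73 and 12.9 CPM in POU1F1-lineage cells (-3.36, SE 0.551). *Hes6* was at 836 CPM (816–856) and 766 CPM (712–822) in gonadotrophs against 271 CPM (257–285) and 184 CPM (166–204), a rise of 1.84 (SE 0.239, adjusted p = 0.000144). Both gonadotroph values of *Hes6* were above both POU1F1-lineage values. With cells thinned to 5000 UMIs 4 of the 10 genes were called. The summed stem markers were at 136 and 314 CPM in POU1F1-lineage cells and 73.7 and 86.5 CPM in gonadotrophs. POMC-lineage cells, with 6.32 and 10.4 CPM of *Hes1*, had 71.6 and 158 CPM of these markers. Within each library the 3 lineages had the same order in the stem markers as in *Hes1*. Without cells marked as doublets *Hes1* was at 61.0 and 159 CPM in POU1F1-lineage cells and 4.87 and 4.02 CPM in gonadotrophs. The part of stem-cell RNA in these levels was not tested.

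In mesenchymal cells most of the 10 genes were lower than in SCs. *Hey1* was at 6.35 CPM (4.25–9.12) and 5.08 CPM (2.62–8.87), 2.99% and 2.59% of its level in SCs, and *Hey2* at 2.41 and 0.423 CPM. *Hes1* stayed at 20.9% and 14.0% of its SC level and *Notch2* at 21.9% and 19.8%. Against SCs 7 genes were called and all were lower, against 28.9% of all genes: *Hey1* (-5.10, SE 0.239, edgeR adjusted p = 5.92e-08), *Hey2* (-4.72), *Nrarp* (-3.38), *Hes5* (-3.13), *Hes1* (-2.51), *Notch2* (-2.24) and *Hes6* (-1.31). *Notch1*, *Notch3* and *Heyl* were not called, at log2 fold changes of -0.38, -0.19 and -0.44 with adjusted p-values of 0.217, 0.616 and 0.274. Their levels were 97.2%, 126% and 100.3% of those in SCs in the male library, where mural cells held 53 of the 93 *Notch3* and 51 of the 79 *Heyl* UMIs, and 48.4%, 39.3% and 43.2% in the female library. With no filter on low counts *Notch1* and *Heyl* were called lower, at adjusted p-values of 0.0104 and 0.0234. A *Hes1* UMI was found in 49.0% (44.4–53.7) and 54.6% (48.3–60.8) of thinned mesenchymal cells.

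Mural cells, the contractile cells around small vessels, numbered 30 and 7, too few to be fitted. In the male library *Notch3*, the receptor known for its part in these cells, was at 248 CPM (186–324) in mural cells and 9.18 CPM (6.56–12.5) in the 488 fibroblasts, and *Heyl* at 239 CPM (178–314) and 6.43 CPM (4.27–9.29). *Notch1* was at 117 against 23.9 CPM. All 14 *Hes5* UMIs of male mesenchymal cells were in mural cells, and the 7 female mural cells had none. After thinning, 99.8% of 467 male mesenchymal cells had no *Hes5* UMI, and the highest count in a cell was 8. The male *Hes5* UMIs thus lay in very few cells and do not describe mural cells as a class. In the female library the 7 mural cells held 3 UMIs of *Notch3*, 69.9 CPM (14.4–204), and 4 of *Heyl*, 93.2 CPM (25.4–239), against 6.90 CPM of both genes in 281 fibroblasts. In fibroblasts of both libraries *Notch3* and *Heyl* were thus below their SC levels. Of 5 endothelial markers *Pecam1*, *Cdh5*, *Kdr* and *Cldn5* had no UMI in the male mural cells, while *Emcn* was at 519 CPM there and at 746 CPM in the female ones. Cells with at least 3 UMIs of *Pecam1*, *Cdh5*, *Kdr* and *Cldn5* together had been left out as other types. The low levels of these genes are thus partly set by that gate, which did not use *Emcn*. Schwann and oligodendrocyte markers summed to 299 CPM in male mural cells, against 11.3 CPM in male fibroblasts, and had no UMI in female mural cells. Stem markers summed to 262 and 163 CPM in mural cells, against 73.7 and 73.3 CPM in fibroblasts. Whether the mural class holds other cells was not tested.

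Among SCs *Hes1* differed most between the libraries of the 10 genes. Its level there in the female library was 1.93 times that in the male library (limits 1.89–1.98), among cycling SCs 1.76 times (1.70–1.82) and among differentiating cells 2.68 times (2.35–3.06). In SCs, 2.3% of 8376 genes with a mean of at least 10 CPM differed by 1.5-fold or more in either direction, and *Hes1* was the only member that did. *Hes5* and *Hes6* were lower in the female SCs, at 0.674 (0.542–0.838) and 0.686 (0.632–0.744) times the male level. The other 7 genes lay between 0.804 for *Nrarp* and 1.27 for *Notch3*. In other classes other members also differed. In cycling SCs *Hes5* was at 0.304 (0.169–0.528) and *Heyl* at 0.592 (0.437–0.797) times the male level, and in mesenchymal cells *Notch3* was at 0.395, *Heyl* at 0.49 and *Notch1* at 0.585 times, where *Hes1* was at 1.30 times. With 1 library per sex there is no test of these ratios.

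**Figure D4:**
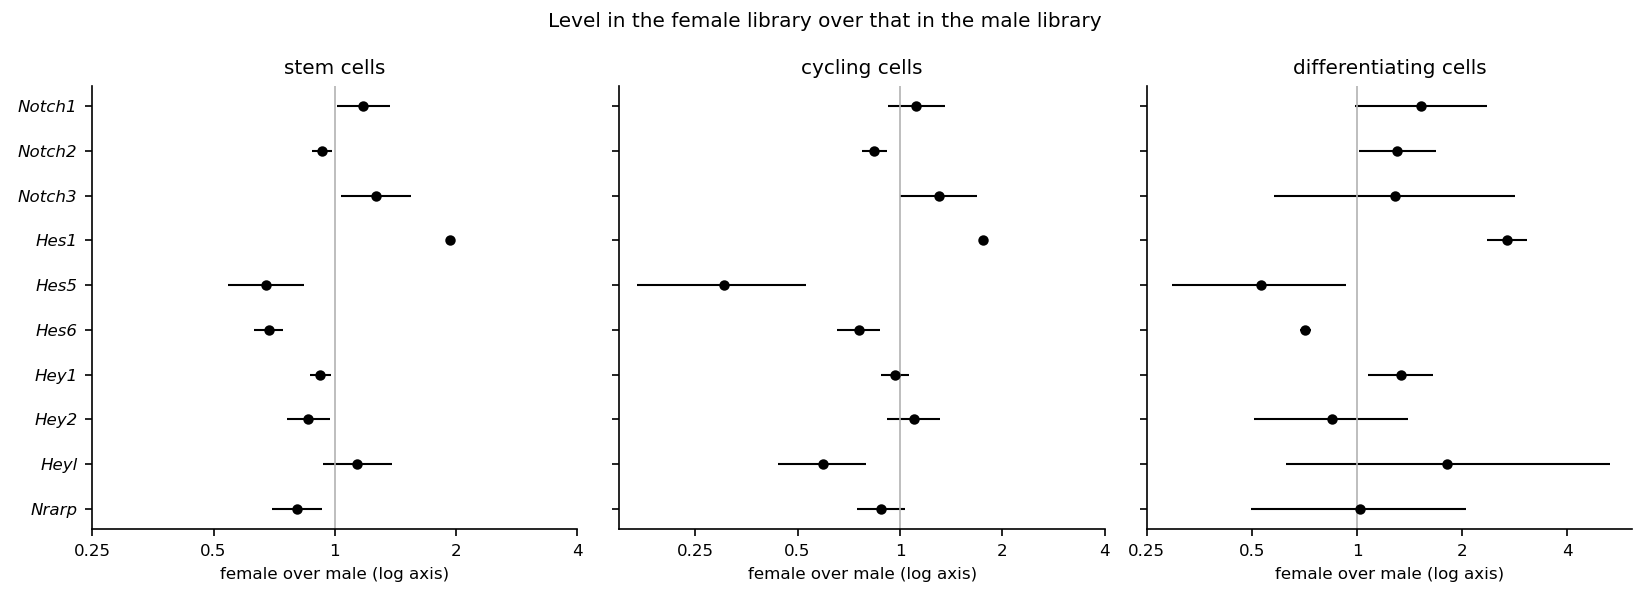
Level in the female over that in the male library for the 10 genes in SCs, cycling SCs and differentiating cells, on a log axis, with limits from the exact Poisson bounds of both levels. *Hes1* is the gene farthest right among SCs, at 1.93, and *Hes6* lies left of 1 in all 3 classes.

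Immediate-early genes, which rise during tissue dissociation, were looked at beside *Hes1*, a choice made after its ratio had been seen. In SCs, 8 of them (*Fos*, *Fosb*, *Jun*, *Junb*, *Egr1*, *Ier2*, *Atf3*, *Nr4a1*) had female over male ratios between 0.83 for *Ier2* and 1.26 for *Atf3*. In differentiating cells the ratios of all 8 were above 1, between 1.04 and 1.56, and that of *Hes1* was 2.68. In endocrine cells they were between 1.22 and 2.06, and that of *Hes1* was 3.26. The endocrine class held 562 male and 66 female gonadotrophs and 399 and 164 POU1F1-lineage cells, so its ratios compare unlike mixes of cells. *Hes1* was at 14.9 and 4.02 CPM in gonadotrophs and at 70.1 and 219 CPM in POU1F1-lineage cells. The part of the sort and dissociation in the *Hes1* level cannot be told apart from the library.

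The rest of the pathway was read from a list of 78 genes, of which 77 were in the files and 66 were tested. Between differentiating cells and SCs, 27 were higher and 16 lower, where 24.9% of all genes were higher and 28.3% lower, and the median log2 fold change was 0.04 against -0.02 over all genes. The list was thus not lower as a whole in the way the 10 genes were. Its interquartile range was -0.30 to 0.59, against -0.62 to 0.36 over all genes, and so leaned upwards. The ligand gene *Dll1* was at 25.4 and 25.5 CPM in SCs and 103 and 109 CPM in differentiating cells and rose by 2.06 (SE 0.112, edgeR adjusted p = 1e-10). *Dll3*, which encodes a ligand-like inhibitor, rose by 4.51 (SE 0.309) and *Mfng*, a Fringe glycosyltransferase, by 4.29 (SE 0.183). The ligand gene *Jag1* went from 32.4 and 27.4 CPM to 7.45 and 8.57 CPM and fell by 1.92 (SE 0.148, adjusted p = 5.45e-09).

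Of the bHLH activators, *Neurod1* (4.42, SE 0.398) and *Neurod4* (4.56, SE 0.319) rose. *Id3* (-2.62) and *Id4* (-2.19), inhibitors of bHLH dimers, fell, and so did *Dtx4* (-2.06), an E3 ligase of the Deltex family, and *Dlk1* (-1.80), a Delta-like protein. *Rbpj*, the DNA-binding partner of the receptors, was at 72.5 and 93.1 CPM in SCs and at 101 and 116 CPM in differentiating cells, a rise of 0.40 (SE 0.0773, edgeR adjusted p = 0.000267). *Notch4*, the remaining receptor, was between 4.29 and 6.98 CPM in all 5 classes of both libraries and was called in none of the 5 comparisons.

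In endocrine cells against SCs, 22 of the 66 list genes were higher and 18 lower, where 31.0% and 31.6% of all genes were, led by *Neurod1* (7.42, SE 0.388) and by *Jag1* (-3.88, SE 0.188). The Fringe gene *Lfng* was at 16.9 and 16.1 CPM in SCs and 1.40 and 3.43 CPM in endocrine cells (-3.18, SE 0.229). In cycling SCs 3 were higher and 13 lower, where 13.1% and 16.1% of all genes were, with a median of -0.20 against -0.10 over all genes. *Neurl1b*, an E3 ligase that acts on ligands, rose by 3.18 (SE 0.391, edgeR adjusted p = 7.88e-06), from 0.955 and 0.35 CPM to 4.86 and 7.36 CPM, while *Dll1* fell by 1.11 (SE 0.137). In mesenchymal cells against SCs 20 were higher, as were 25.9% of all genes, and 21 lower, as were 28.9%. *Jag1* was at 50.6 and 55.9 CPM there and was higher than in SCs by a log2 of 0.81 (0.815, SE 0.132, adjusted p = 4.17e-05), and *Dlk1* was lower by 5.53 (-5.53, SE 0.502).

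Within differentiating cells, the 274 male cells with a UMI of *Dll1* had 31.4 CPM of *Hes1* (22.7–42.3) against 66.8 CPM (57.2–77.5) in the 518 without it, after thinning. Female cells had 73.1 CPM (58.6–90.2) in 238 cells and 201 CPM (180–223) in 343. Cells marked as doublets are included in these values. Without them, *Dll1* was at 65.3 CPM (37.3–106) in male cells with *Hes1* and 104 CPM (93.5–115) in those without, and at 114 CPM (78.3–160) and 119 CPM (106–133) in female cells, whose limits overlap. *Hes6* differed little by *Dll1*, at 1379 against 1462 CPM and 1050.4 against 981 CPM.

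Over the 22 sums of finer classes, *Notch2* and *Hes1* ran together, with a Pearson r of 0.973 on log2(CPM + 5), and *Hey1* and *Hey2* likewise (0.973). *Hes6* had an r of -0.69 with *Hes1*. Among 8555 genes with at least 20 CPM, those near *Hes6* included *Chd7* (0.977) and *Gse1* (0.956), and those nearest to *Hes1* were *Cyr61* (0.986), *Sptbn1* (0.984) and *Zfp36l2* (0.982). For *Notch2* they were *Gm266* (0.986), *Zfp36l2* and *Rtp4*, and for *Hey1* *Agr3* (0.981), *Aldh1a2* and *Slc9a3r1*. *Hes5* was under the limit on level and was not ranked. The points come from 2 libraries and share their depth, and classes were cut with *Aldh1a2* among the markers, so these values describe the data and have no test.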

How the data were processed

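The authors ran Cell Ranger with STAR against mm10, with the eGFP sequence added, and deposited raw UMI counts per gene and cell barcode. Here, cells under 50 genes or more than 3 SD above the mean mitochondrial share were removed as in the study, and cells under 33.3% of the library median UMIs were left out, 3155 male and 140 female. Doublets stayed in; Scrublet (scanpy 1.11.5) marked the highest scores, 0.8% per 1000 cells. Classes were gated on marker UMIs. Members, lists and gates were chosen with earlier results of these data known. UMIs were summed per class and library and tested with edgeR 4.0.16 (quasi-likelihood, TMM, filterByExpr, library as a term) in R 4.3.3, with Benjamini-Hochberg adjustment over all genes tested. Only the edgeR fit of the 5 classes was tried on simulated counts, for differentiating cells against SCs. Gates, thinning, doublet marking and the fit of finer classes were not. DESeq2 1.42.0, other scaling and filters, stricter gates, thinning to 5000 UMIs, doublets left out and single libraries were alternatives. Named were all members, and of the pathway list up to 5 genes by fold in each direction. *Dll1*, *Jag1*, *Rbpj*, *Lfng* and *Notch4* were also named for their roles after values were seen, and a gene that the rule would name is not reported here. Positions come from GENCODE vM21 and promoter windows from RefSeq.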

Additional observations from a re-analysis of the deposited data

Results flagged for a closer look

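Some folds had opposite signs in the 2 libraries, a difference that was not tested. Values are given with the male library first. Between cycling SCs and SCs, *Hey2* had log2 folds of -0.25 and 0.10, and *Heyl* 0.34 and -0.60. Between mesenchymal cells and SCs, *Notch3* had 0.33 and -1.35 and *Heyl* 0.00 (0.00396) and -1.21, where the male library held 30 mural cells and the female library 7. *Nrarp* had -0.32 and 0.82 between endocrine and differentiating cells, and 0.94 and -2.98 between late and early differentiating cells, where it had 1 UMI in male and 4 UMIs in female early cells. *Notch2* had 0.31 and -0.11 between *Ednrb*-rich and *Aldh1a2*-rich SCs. *Hes6* had -0.37 and 0.26 between mural cells and fibroblasts, and -0.0908 and 0.19 between G2/M and S phase, where *Hes1* had -0.0521 and 0.0637.

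The 10 genes were also present in the barcodes left out for few UMIs, which enter no comparison. These held 5923 UMIs of the 10 genes in 3155 male barcodes and 565 UMIs in 140 female barcodes. In the male ones *Notch2* was at 321 CPM (304 to 339) and in the female ones at 303 CPM (236 to 383). Both values were above its level in any of the 5 classes.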

How the results depend on the processing

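The number of the 10 genes called stayed within 1.5 times its main value under other settings in 61 counts, was higher in 3 and lower in 8. For cycling SCs against SCs, where 4 were called, it was 2 with DESeq2, 2 with stricter gates and 0 with no replicate block (library term dropped), where edgeR gave 3 at an unadjusted p under 0.05. For *Ednrb*-rich against *Aldh1a2*-rich SCs, where 2 were called, it was 0 with DESeq2, which gave 2 at an unadjusted p under 0.05, 1 with no replicate block, 4 with stricter gates, 4 with the study's filters alone and 5 with no filter on low counts. With cells thinned to 5000 UMIs it was 4 in place of 9 for gonadotrophs against POU1F1-lineage cells and 3 in place of 5 for late against early differentiating cells, where stricter gates gave 1. In these cases the cause was not tested. Of the single log2 fold changes, 838 were counted as unchanged, 28 lost and 16 gained a call and 12 reversed. The 838 include folds within single libraries, which have no test. Such a fold was counted as reversed only where the main fit had called the gene. The opposite signs between the 2 libraries given above are therefore not among the 12. None of these 12 was called. *Nrarp* between endocrine and differentiating cells (-0.02) became 0.21 with DESeq2, 0.25 without doublets, 0.15 with thinning, 0.08 (0.0775) with no replicate block, 0.56 with stricter gates and 0.12 (0.115) with the study's filters, and *Heyl* 0.34 with stricter gates. *Notch2* between the SC groups became -0.09 (-0.0946) with thinning and -0.000799 with no filter, and *Notch3* between late and early cells 0.34 with thinning. Between G2/M and S phase *Hey1* became 0.02 (0.0203) without doublets and *Hey2* 0.01 (0.0103) with stricter gates. Libraries are the only replicates, so leaving 1 out gives folds without a test, and no paired analysis beyond the library term was possible because each class has 1 sum per library.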
